A study of Mus musculus with 12 samples.

Results

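The collagen chain genes encode the polypeptides from which all collagens are assembled. They were taken here as every row whose symbol is Col, a number, a and a number, with at least 10 counts summed over the 12 libraries, which gave 43 of the 53801 genes listed. A further row fitting the pattern, Col19a1, had 8 counts in all and was left out. Of the 43 genes, 39 passed the filter on low counts and were tested, and 4 (Col6a4, Col10a1, Col17a1 and Col25a1) did not and are given as counts only. The study sequenced RNA from macrophages sorted from the hearts of C57BL/6N mice after myocardial infarction, made by tying off the left anterior descending coronary artery. The mice were WT or Bhlhe41dTomato-Cre+/-, which by its name is 1 copy of a dTomato and Cre insertion at Bhlhe41, called Bhlhe41Cre from here on. Cells of each genotype were sorted as CCR2low or CCR2hi by surface CCR2, the receptor for the monocyte chemoattractant CCL2, which gives 4 groups of 3 libraries. All 4 groups had the infarction, and none of the 12 samples is from uninjured hearts. Neither the time after infarction, the age of the mice, the effect of the insertion on Bhlhe41 protein nor how many animals made up a library is stated in the descriptions, so p-values measure the spread between libraries, which may be technical.

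Collagens share a triple helix wound from 3 chains, which may be copies of 1 gene product or of several. Fibrillar collagens (types I, II, III, V, XI, XXIV and XXVII) form the load-bearing fibres of tissue and scar, and types I and III are the main ones of the heart. Type IV chains form the network of basement membranes, FACIT collagens (types IX, XII, XIV, XVI, XIX, XX, XXI and XXII) attach to the surface of fibres, and the short chain types VIII and X form hexagonal lattices. Transmembrane collagens (types XIII, XVII, XXIII and XXV) span the cell surface, and the other genes here make type VI beaded filaments, type VII anchoring fibrils, the multiplexins XV and XVIII of the basement membrane zone, and types XXVI and XXVIII. In an infarcted heart the fibrillar chains come mostly from fibroblasts and the myofibroblasts they turn into, while macrophages are known for taking up and degrading collagen.

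Libraries held 17.7 to 20.8 M counts (M, 1000000). All 12 are labelled male, yet Xist, which is transcribed from the inactive X chromosome of female cells, had 1403 to 3699 counts in the 6 Bhlhe41Cre libraries and 0 to 3 in the 6 WT libraries. Summed counts of the Y-linked Ddx3y, Eif2s3y, Kdm5d and Uty were 105 and 182 in the replicate 3 libraries of Bhlhe41Cre CCR2low and CCR2hi, against 668 to 1741 in the other 10. Xist thus separates the genotypes completely, and in the genotype comparisons its part, with that of the sex it marks, cannot be told apart from that of the insertion. Bhlhe41 itself had 531 to 920 counts in WT and 132 to 477 in Bhlhe41Cre libraries. Ccr2, the gene behind the gate, was lower in every CCR2low library of WT (346 to 765 counts) than in the CCR2hi ones (853 to 1702), but the Bhlhe41Cre gates overlapped, at 1115 to 1645 and 1477 to 1735. Markers of the labelled cell type differed with the gate: 16 macrophage genes made up 3.54% of all counts in WT CCR2low and 3.21% in Bhlhe41Cre CCR2low, but 0.427% and 0.946% in the respective CCR2hi groups. A list of 18 fibroblast genes without collagens ran the other way, at 0.136%, 0.0742%, 1.92% and 0.979% in the same order, and no gene of either list was at 0 in any group. In bulk RNA, fewer cells of a type and less RNA per cell cannot be told apart. Collagen differences are therefore given below on the TMM scale, which compares whole libraries. Counts of called genes, and the values of some genes, are also given per unit of this fibroblast RNA, where some genes changed direction between gates.

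Promoters are printed for the most abundant chain, for a type I chain, and for type IV chains, whose genes lie in head-to-head pairs, since these carry the results below. Each window spans 250 bases before to 50 after a RefSeq gene start on GRCm38.p6, is written 5′ to 3′ on the strand of its gene, and has the letters CCAAT or TATAAA, searched on both strands, in capitals (ATTGG is CCAAT on the other strand).
Col3a1, chr1:45311288-45311587 (plus strand): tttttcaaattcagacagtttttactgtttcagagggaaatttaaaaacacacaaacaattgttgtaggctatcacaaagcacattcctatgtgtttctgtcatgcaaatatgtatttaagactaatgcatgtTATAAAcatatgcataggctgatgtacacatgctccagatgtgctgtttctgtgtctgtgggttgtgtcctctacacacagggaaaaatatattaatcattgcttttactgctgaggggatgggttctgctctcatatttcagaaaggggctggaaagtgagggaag
Col1a2, chr6:4505368-4505667 (plus strand): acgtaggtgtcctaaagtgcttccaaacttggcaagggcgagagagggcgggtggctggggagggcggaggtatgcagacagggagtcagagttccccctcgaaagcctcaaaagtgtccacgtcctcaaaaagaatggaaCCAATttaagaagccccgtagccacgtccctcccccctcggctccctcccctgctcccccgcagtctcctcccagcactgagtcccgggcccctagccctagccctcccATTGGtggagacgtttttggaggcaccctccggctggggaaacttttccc
Col4a1, chr8:11312777-11313076 (minus strand): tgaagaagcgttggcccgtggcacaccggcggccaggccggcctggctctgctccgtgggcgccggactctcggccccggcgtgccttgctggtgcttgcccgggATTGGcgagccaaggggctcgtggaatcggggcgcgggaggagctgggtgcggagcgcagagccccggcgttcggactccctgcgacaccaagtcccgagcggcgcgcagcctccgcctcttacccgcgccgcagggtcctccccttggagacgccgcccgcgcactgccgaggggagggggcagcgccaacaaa
Col4a2, chr8:11312555-11312854 (plus strand): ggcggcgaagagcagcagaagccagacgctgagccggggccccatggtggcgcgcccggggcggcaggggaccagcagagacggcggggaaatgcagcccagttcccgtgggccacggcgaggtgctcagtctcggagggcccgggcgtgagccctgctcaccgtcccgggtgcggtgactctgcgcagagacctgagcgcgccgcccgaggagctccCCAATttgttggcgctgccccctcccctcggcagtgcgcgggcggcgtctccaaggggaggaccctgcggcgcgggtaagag
Col4a4, chr1:82586800-82587099 (minus strand): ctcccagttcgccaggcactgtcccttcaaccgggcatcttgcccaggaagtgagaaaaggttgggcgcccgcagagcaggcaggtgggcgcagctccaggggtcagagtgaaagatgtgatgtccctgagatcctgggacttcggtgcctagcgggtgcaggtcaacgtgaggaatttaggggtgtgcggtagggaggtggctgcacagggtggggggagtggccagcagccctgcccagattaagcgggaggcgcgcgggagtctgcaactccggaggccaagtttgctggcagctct
The Col4a1 and Col4a2 windows share 78 bases, at chr8:11312777-11312854, because the 2 genes start next to each other on opposite strands. RefSeq windows were found for 34 of the 43 genes, and Col12a1, Col14a1, Col1a1, Col22a1, Col26a1, Col2a1, Col4a3, Col5a2 and Col9a3 had none. CCAAT was in windows of 13 of the 34 genes, or 35.1% of their 37 windows, against 37.4% of all 32851 windows of that length. TATAAA was in windows of 5 of them, or 13.5% of windows, against 13.6% of all. Both letter strings were therefore about as frequent as in promoters at large, and a match is a description of the sequence only.

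Collagen RNA was abundant in the CCR2hi libraries of these macrophage sorts and was dominated by 3 fibrillar chains. Summed over the 43 genes, it reached 31606, 30934 and 32368 TPM (transcript abundance scaled for gene length and to the same sum in every library) in the WT CCR2hi libraries and 18518, 14718 and 13805 TPM in Bhlhe41Cre CCR2hi. The CCR2low libraries held 2925, 2948 and 1883 TPM in WT and 1067, 2131 and 828 TPM in Bhlhe41Cre. The gates did not overlap in either genotype, and the genotypes did not overlap in CCR2hi, but in CCR2low Bhlhe41Cre replicate 2 lay above WT replicate 3. As means the sums for CCR2low and then CCR2hi were 2585 ± 608 and 31636 ± 717 TPM for WT, and 1342 ± 694 and 15680.5 ± 2499.7 TPM for Bhlhe41Cre (SD, n = 3 each), or 0.259%, 3.16%, 0.134% and 1.57% of all TPM. In order of mean level, Col3a1, Col1a2 and Col1a1 led, followed by chains of types IV, V and VI.

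**Figure D1:**
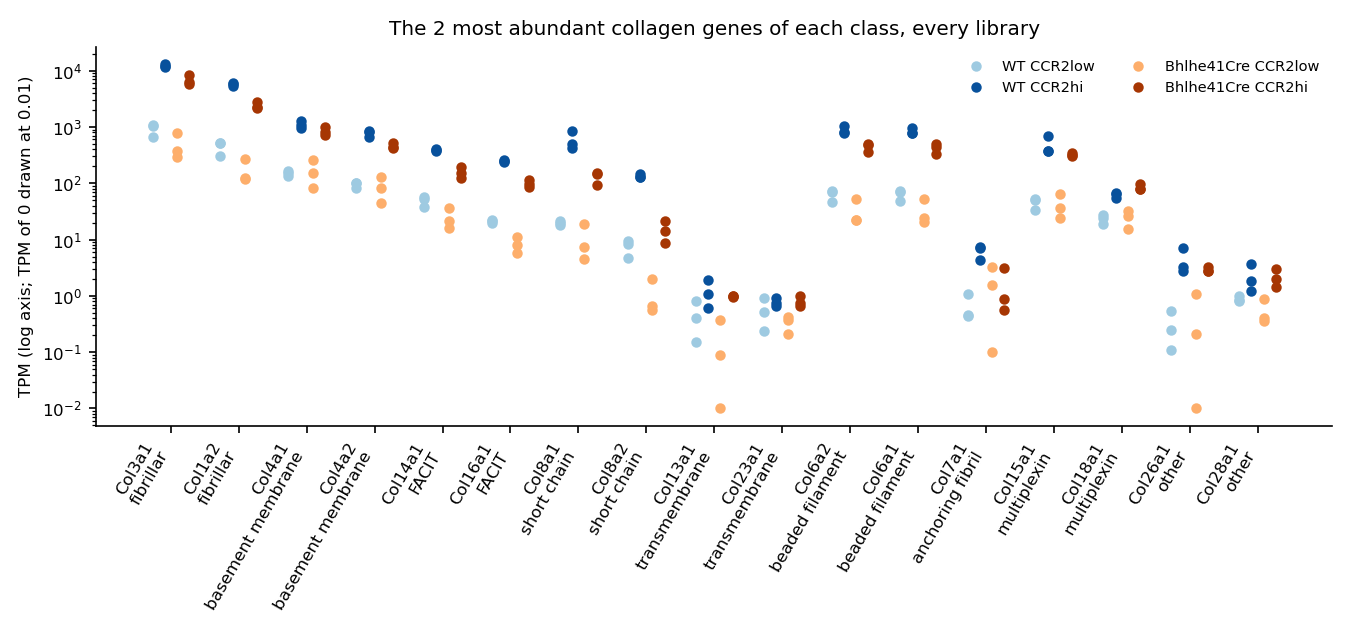
TPM on a log axis of the most abundant collagen genes of each class (2 per class, 1 for the anchoring fibril class) in every library, with points for libraries and colours for the 4 groups. For the fibrillar, type IV, FACIT, type VI and multiplexin genes both CCR2hi groups lie above both CCR2low groups, Col8a2 of 1 Bhlhe41Cre CCR2hi library (8.83 TPM) lies below 1 WT CCR2low library (9.34 TPM), and the transmembrane genes Col13a1 and Col23a1 lie at 1.92 TPM or below.

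The comparison of gates within each genotype asks which collagens went with surface CCR2. In WT, 35 of the 39 tested genes were lower in CCR2low than in CCR2hi and none was higher by edgeR's quasi-likelihood test with Benjamini-Hochberg adjustment over all genes (adjusted p under 0.05). Of all 14964 tested genes, 30.04% were called lower and 29.8% higher, so the collagens did not split as the genes at large did. No collagen was higher at an unadjusted p under 0.05 either, nor by DESeq2. In Bhlhe41Cre, 36 of 39 were lower and 1, Col11a2, was higher, against 29.1% and 24.9% of all genes. The median log2 fold change of the collagens was -3.27 in WT and -2.77 in Bhlhe41Cre, against 0.01 and -0.01 over all genes. Differences given below without a unit are log2 fold changes, with a minus sign where the first-named group was lower. In CPM (counts per 1000000) the gates were clear of each other for all 35 and all 36 genes called lower. Col9a1, Col22a1 and Col26a1 had fewer than 10 counts in each CCR2low library and passed the filter through CCR2hi, so the counts describe the tested genes and not all 43.

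Among the fibrillar chains, 10 of 11 were lower in CCR2low in each genotype, and Col11a2 was the exception. Col3a1, the type III chain, was at 1049, 1078 and 661 TPM in WT CCR2low and 12040.0, 11756 and 13054 TPM in WT CCR2hi. In Bhlhe41Cre it was at 379, 779 and 297 TPM in CCR2low and 8492, 6399 and 5852 TPM in CCR2hi. The gates stood far apart in both genotypes, with log2 fold changes of -3.31 ± 0.33 (SE, adjusted p = 1.79e-06 by edgeR) in WT and -3.64 ± 0.34 (adjusted p = 1.18e-06) in Bhlhe41Cre. Col1a2, which supplies 1 of the 3 chains of type I collagen, was at 515, 512 and 311 TPM in WT CCR2low and 5341, 5855 and 6021 TPM in WT CCR2hi. In Bhlhe41Cre it was at 126, 275 and 118 TPM (CCR2low) against 2742, 2205 and 2244 TPM (CCR2hi). Its gate differences, -3.31 ± 0.31 and -3.59 ± 0.31, were close to those of Col3a1. Col1a1, Col5a1, Col5a2 and Col5a3, of types I and V, differed between the gates by -3.19, -3.34, -3.32 and -3.27 in WT, and by -3.57, -3.66, -3.59 and -3.39 in Bhlhe41Cre. Col27a1 and Col24a1, of the minor types XXVII and XXIV, were lower at -3.11 and -2.83 in WT on the same log2 scale. The cartilage chains Col2a1 and Col11a1 had the largest fibrillar differences in WT, at -4.37 ± 0.40 and -4.17 ± 0.42. Col2a1 moved from -3.71 to -4.61 in Bhlhe41Cre without Bhlhe41Cre CCR2low replicate 2 and to -3.12 without replicate 1 of that group, and Col11a1 from -3.25 to -3.94 without replicate 2.

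Col11a2, the other type XI chain, went against the rest of the fibrillar class. It was at 2.79, 2.19 and 2.53 TPM in WT CCR2low and 2.46, 1.48 and 2.93 TPM in WT CCR2hi, and at 3.01, 3.52 and 2.92 TPM (CCR2low) against 1.55, 1.56 and 3.43 TPM (CCR2hi) in Bhlhe41Cre. These TPM values overlapped between the gates, while CPM, from 162, 136 and 137 counts in Bhlhe41Cre CCR2low and 100, 80 and 107 in Bhlhe41Cre CCR2hi, did not overlap in either genotype. By edgeR it was higher in Bhlhe41Cre CCR2low by 0.77 ± 0.17 (adjusted p = 0.00194), whereas the WT difference was 0.18 (95% interval -0.20 to 0.56). On TPM the Bhlhe41Cre call was lost, with a limma-trend adjusted p of 0.148 for log2(TPM + 1).

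All 6 type IV chains were lower in CCR2low in both genotypes. Col4a1 was at 155, 162 and 135 TPM in WT CCR2low and 1264, 1106 and 969 TPM in WT CCR2hi. In Bhlhe41Cre it was at 152, 261 and 83.7 TPM (CCR2low) against 1019, 828 and 711 TPM (CCR2hi). Its differences of -2.56 ± 0.27 in WT and -2.17 ± 0.26 in Bhlhe41Cre were smaller than those of the main fibrillar chains. Col4a2, its partner in the most widespread type IV network, was at 102, 102 and 83.3 TPM (CCR2low) against 861, 831 and 655 TPM (CCR2hi) in WT, and at 82.8, 127 and 45.5 TPM (CCR2low) against 525, 440.1 and 417 TPM (CCR2hi) in Bhlhe41Cre. It differed between gates by -2.68 ± 0.27 and -2.22 ± 0.26. The minor chains spread more widely in WT, from -2.14 for Col4a6 and -3.05 for Col4a5 to -4.19 for Col4a3 and -4.22 for Col4a4. The same chains spanned -1.90 (Col4a6) to -2.77 (Col4a5) in Bhlhe41Cre.

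FACIT genes were called lower in CCR2low for 7 of 8 in WT and 7 of 8 in Bhlhe41Cre, with Col20a1 missing in WT and Col9a3 in Bhlhe41Cre. Col14a1 was at 52.1, 57.0 and 37.3 TPM in WT CCR2low and 396, 402 and 378 TPM in WT CCR2hi, and at 21.1, 35.8 and 16.3 TPM (CCR2low) against 191, 149 and 123 TPM (CCR2hi) in Bhlhe41Cre. Col16a1 was at 21.5, 22.2 and 19.6 TPM (CCR2low) against 254, 261 and 240.2 TPM (CCR2hi) in WT, and at 8.1, 11.1 and 5.86 TPM (CCR2low) against 116, 96.3 and 84.6 TPM (CCR2hi) in Bhlhe41Cre. Both were lower in every CCR2low library than in any CCR2hi library of their genotype, Col14a1 at -2.64 ± 0.26 and -2.40 ± 0.26, and Col16a1 at -3.31 ± 0.25 and -3.56 ± 0.26. Col16a1 had the smallest p of the 39 genes in both gate comparisons. Col12a1 was lower at -4.04 in WT and Col9a2 at -4.17. In Bhlhe41Cre their differences moved from -3.44 and -4.18 to -4.24 and -5.34 without Bhlhe41Cre CCR2low replicate 2. Col9a1 had 2 counts in WT CCR2low in all and 101 in WT CCR2hi, a CCR2hi to CCR2low ratio of 49.9 (95% counting interval 13.5 to 418). Its WT log2 fold change moved from -5.40 to -8.07 without WT CCR2low replicate 1, which held both of these counts. In Bhlhe41Cre its call (adjusted p = 0.0182) was lost without CCR2low replicate 2 or 3 (0.0548 and 0.0524) or CCR2hi replicate 2 (0.097). Col22a1, at -4.40 in WT, moved to -5.73 without WT CCR2low replicate 1, and Col9a3 lost its WT call (-1.92, adjusted p = 0.0154) without WT CCR2low replicate 2 (0.0612) or WT CCR2hi replicate 3 (0.0742).

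Both short chain genes, the chains of type VIII collagen of vessel walls and the corneal basement membrane, were lower in CCR2low in both genotypes. Col8a1 was at 21.7, 19.5 and 18.4 TPM in WT CCR2low and 846, 506 and 417 TPM in WT CCR2hi, and at 7.37, 19.2 and 4.46 TPM (CCR2low) against 152, 146 and 92.9 TPM (CCR2hi) in Bhlhe41Cre. Its WT difference was -4.52 ± 0.44 (adjusted p = 1.37e-06 by edgeR) and that in Bhlhe41Cre -3.47 ± 0.42. Col8a2 was at 9.34, 8.34 and 4.67 TPM (CCR2low) against 127, 146 and 128 TPM (CCR2hi) in WT, and at 0.66, 1.98 and 0.57 TPM (CCR2low) against 21.3, 14.3 and 8.83 TPM (CCR2hi) in Bhlhe41Cre. It differed by -3.77 ± 0.41 and -3.58 ± 0.43, with no overlap in either genotype. Without Bhlhe41Cre CCR2low replicate 2 the Bhlhe41Cre differences of Col8a1 and Col8a2 were -4.19 and -4.29.

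The transmembrane genes were near the limit of what these libraries show. Col13a1 was at 0.41, 0.15 and 0.8 TPM in WT CCR2low and 1.06, 1.92 and 0.62 TPM in WT CCR2hi, and at 0, 0.37 and 0.09 TPM (CCR2low) against 1, 0.96 and 1.01 TPM (CCR2hi) in Bhlhe41Cre. Col23a1 was at 0.24, 0.52 and 0.91 TPM (CCR2low) against 0.74, 0.93 and 0.66 TPM (CCR2hi) in WT, and at 0.37, 0.43 and 0.21 TPM (CCR2low) against 0.98, 0.67 and 0.76 TPM (CCR2hi) in Bhlhe41Cre. In WT the gates overlapped for both, and neither was called (95% intervals -2.46 to 0.28 and -0.92 to 0.63). In Bhlhe41Cre both were lower in CCR2low, Col13a1 at -2.70 ± 0.76 and Col23a1 at -1.04 ± 0.37. The Col13a1 value moved to -4.24 without CCR2low replicate 2, and to -2.11 without replicate 1, which had no Col13a1 count. The Col23a1 call (adjusted p = 0.0299) was lost without CCR2low replicate 1 (0.061) or 3 (0.12) or CCR2hi replicate 1 (0.109) or 3 (0.0582).

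Type VI genes were lower in CCR2low for 5 of 5 tested in WT and 4 of 5 in Bhlhe41Cre. Col6a2 was at 74.1, 69.0 and 46.1 TPM in WT CCR2low and 1038, 786 and 808 TPM in WT CCR2hi, and at 22.6, 52.9 and 22.1 TPM (CCR2low) against 503, 483 and 354 TPM (CCR2hi) in Bhlhe41Cre. Col6a1 was at 72.5, 70.1 and 47.7 TPM (CCR2low) against 959.8, 776 and 777 TPM (CCR2hi) in WT, and at 24.5, 53.6 and 20.8 TPM (CCR2low) against 491, 449 and 332 TPM (CCR2hi) in Bhlhe41Cre. The pair, which assembles with a product of Col6a3, ran almost in parallel, at -3.42 and -3.34 in WT and -3.57 and -3.48 in Bhlhe41Cre. Col6a3 differed by -3.44 and -3.31, and Col6a6 by -2.58 and -2.74. Without Bhlhe41Cre CCR2low replicate 2 the Bhlhe41Cre values of Col6a3 and Col6a6 were -4.01 and -3.69. Col6a5 was lower in WT CCR2low by -1.59 ± 0.49, a call (adjusted p = 0.013) that was lost without WT CCR2low replicate 1 (0.0571) or WT CCR2hi replicate 3 (0.0564), and in Bhlhe41Cre it differed by -0.51 (95% interval -1.80 to 0.77).

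The remaining 5 tested genes were lower in CCR2low in both genotypes. Col15a1, a multiplexin, was at 51.4, 52.9 and 34.1 TPM in WT CCR2low and 698, 378 and 370.2 TPM in WT CCR2hi, and at 35.8, 65.1 and 24.4 TPM (CCR2low) against 346, 323 and 306 TPM (CCR2hi) in Bhlhe41Cre. Col18a1, the source of endostatin, was at 27.3, 23.7 and 19.1 TPM (CCR2low) against 55.0, 66.3 and 64.2 TPM (CCR2hi) in WT, and at 26.6, 31.7 and 15.4 TPM (CCR2low) against 97.6, 79.0 and 78.3 TPM (CCR2hi) in Bhlhe41Cre. Col18a1 had the smallest difference of the called genes in WT, -0.96 ± 0.20, and differed by -1.55 ± 0.20 in Bhlhe41Cre, against -3.08 ± 0.36 and -2.77 ± 0.35 for Col15a1. Col7a1, the anchoring fibril chain, was at 1.06, 0.44 and 0.45 TPM in WT CCR2low and 4.29, 7.39 and 7.14 TPM in WT CCR2hi, and at 3.22, 1.58 and 0.1 TPM (CCR2low) against 3.08, 0.87 and 0.57 TPM (CCR2hi) in Bhlhe41Cre. Its counts gave -3.25 ± 0.41 and -2.10 ± 0.44, while its Bhlhe41Cre TPM overlapped between the gates and gave a limma-trend difference of 0.00 on log2(TPM + 1), so the call there depended on the unit. Col26a1 was at 0.53, 0.11 and 0.25 TPM (CCR2low) against 7.05, 3.32 and 2.8 TPM (CCR2hi) in WT, and at 0.21, 1.1 and 0 TPM (CCR2low) against 2.76, 2.75 and 3.2 TPM (CCR2hi) in Bhlhe41Cre. Col28a1 was at 0.81, 0.85 and 1.01 TPM (CCR2low) against 3.65, 1.83 and 1.21 TPM (CCR2hi) in WT, and at 0.41, 0.89 and 0.36 TPM (CCR2low) against 2.95, 2.01 and 1.42 TPM (CCR2hi) in Bhlhe41Cre. Col26a1 differed by -4.87 and -4.71 and Col28a1 by -1.54 and -2.10. The Bhlhe41Cre value of Col26a1 was -6.17 without CCR2low replicate 2, and the WT call of Col28a1 was lost without WT CCR2low replicate 1 (adjusted p = 0.0578).

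**Figure D2:**
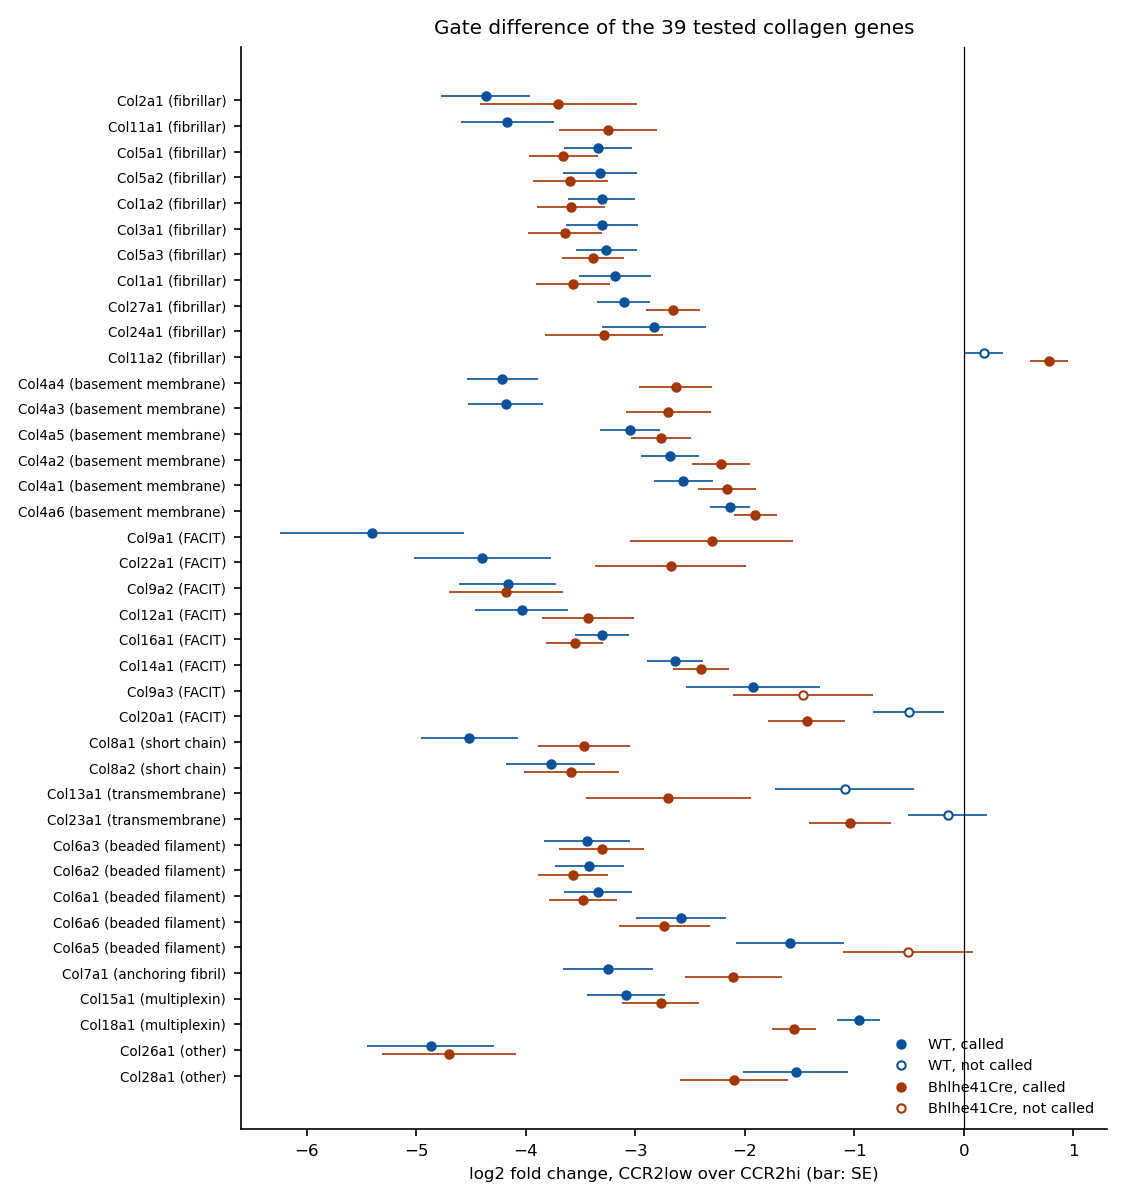
log2 fold change of CCR2low over CCR2hi on the TMM scale for each of the 39 tested collagen genes in WT (blue) and Bhlhe41Cre (brown), with bars for the standard error and filled points for genes called by edgeR. Nearly all points lie left of 0, the main fibrillar chains cluster between -3 and -4, and Col11a2 is alone on the right.

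Of the non-collagen cell markers, all 18 fibroblast genes were lower in CCR2low in both genotypes (median log2 fold change -3.45 in WT and -3.69 in Bhlhe41Cre), as were all 10 endothelial genes, and all 16 macrophage genes were higher. Mural cell genes were lower for 9 of 10 in WT and 10 of 10 in Bhlhe41Cre, and Schwann cell genes for 5 and 8 of 8. Cardiomyocyte genes were lower for 1 of 8 in WT and 8 of 8 in Bhlhe41Cre, and all 4 tested cartilage genes were lower in both. Adipocyte genes were higher in CCR2low for 4 of 4 tested in WT (median 8.04) and for none in Bhlhe41Cre, and mesothelial genes for 6 and 4 of 7 (medians 2.25 and 0.89), with 1 lower in each genotype. These counts are on the TMM scale. There 30.04% of all genes were lower and 29.8% higher in WT, and 29.1% and 24.9% in Bhlhe41Cre. The 1 of 8 cardiomyocyte genes lower in WT was a smaller share than among all genes. The adipocyte list held 0.00218% to 0.0789% of counts in the WT CCR2low libraries (mean 0.0284%, SD 0.0437%), so 1 library held most of it. When each library was scaled by its fibroblast RNA (the geometric mean of CPM + 0.5 over the 18 genes), the main fibrillar chains no longer differed between gates beyond their error. Col1a1, Col1a2, Col3a1 and Col5a1 were at 0.16 ± 0.39, 0.05 ± 0.39, 0.06 ± 0.40 and 0.04 ± 0.37 in WT, with 95% intervals that reached from -0.72 to 0.93 over the 4 genes. In Bhlhe41Cre they were at -0.02 ± 0.39, -0.02 ± 0.39, -0.09 ± 0.40 and -0.11 ± 0.37. This scale shifted the median of all genes by 3.42 in WT and 3.71 in Bhlhe41Cre on the log2 scale, and the direction of the collagen family changed with it, to medians of 0.15 and 0.67.

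Per unit of fibroblast RNA, 12 collagen genes were higher and 5 lower in WT CCR2low, where 92.3% of all genes were higher and 0.227% lower. In Bhlhe41Cre 16 were higher and none lower, against 90.04% and 0.0334%, and 1 collagen was lower at an unadjusted p under 0.05. Col18a1 stood well above 0 in both genotypes, at 2.41 ± 0.38 and 2.10 ± 0.38, as did Col11a2 at 3.60 ± 0.42 and 4.49 ± 0.44 and Col23a1 at 3.34 ± 0.47 and 2.59 ± 0.48. Type IV chains were higher for 2 of 6 in WT (Col4a1 0.85, Col4a6 1.29) and 5 of 6 in Bhlhe41Cre (Col4a1 1.41, Col4a2 1.36, Col4a4 0.91, Col4a5 0.84, Col4a6 1.73). Col23a1 in WT moved to 2.63 without WT CCR2low replicate 3. Of these calls, those of Col18a1, Col11a2, Col23a1 and Col4a6 in both genotypes and of Col4a1 and Col4a2 in Bhlhe41Cre held under all 16 alternatives. The WT call of Col4a1 was lost without WT CCR2low replicate 2 or 3 or WT CCR2hi replicate 1 or 3 (adjusted p = 0.0677 to 0.0934), and it was 0.43 (adjusted p = 0.197) when matrix protein genes were left out of the fibroblast list. The Bhlhe41Cre call of Col4a4 (adjusted p = 0.0425) was lost in 9 of the 16 alternatives, at 0.59 (adjusted p = 0.233) without Bhlhe41Cre CCR2low replicate 3, and that of Col4a5 in 5 of them, at 0.67 (adjusted p = 0.113) without replicate 1 of that group. The 5 lower genes in WT were Col8a1 (-1.08), Col2a1 (-1.07), Col11a1 (-0.82), Col26a1 (-1.41) and Col9a1 (-2.27). None of these 5 was called when the summed counts of the fibroblast list set the scale. The call of Col8a1 was the only one of the 5 that no single library ended. The others were lost without 2 to 4 of the WT libraries: Col2a1 without CCR2low replicate 3 or CCR2hi replicate 2, Col11a1 without CCR2low or CCR2hi replicate 2 or 3, Col26a1 without CCR2low replicate 1 or 2 or CCR2hi replicate 1, and Col9a1 without CCR2low or CCR2hi replicate 2 or 3. Col9a1 was -7.02 without WT CCR2low replicate 1 and -1.68 without replicate 2. In WT, 8 genes were called lower in CCR2low on the TMM scale but higher per unit of fibroblast RNA. They were Col14a1, Col18a1, Col28a1, Col4a1, Col4a6, Col6a5, Col6a6 and Col9a3. In Bhlhe41Cre there were 13 such genes. They were Col14a1, Col15a1, Col18a1, Col20a1, Col23a1, Col27a1, Col28a1, Col4a1, Col4a2, Col4a4, Col4a5, Col4a6 and Col7a1.

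Between genotypes in CCR2hi, the collagens most reduced in Bhlhe41Cre were not the abundant ones. On the TMM scale 21 of the 39 genes were lower in Bhlhe41Cre, against 15.9% of all genes, and 1 was higher, against 16.2%. They were 6 of 11 fibrillar, 4 of 6 type IV, 5 of 8 FACIT, both short chain VIII, 3 of 5 type VI genes and Col7a1, and no transmembrane gene was called. The median over the 39 was -0.88, with all genes at -0.03, and the groups were apart in CPM for all 21.

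Col2a1, the chain of cartilage type II collagen, had the smallest p. It was at 11.4, 17.1 and 14.7 TPM in WT CCR2hi and 0.92, 0.93 and 1.06 TPM in Bhlhe41Cre CCR2hi, which are far apart. Its log2 fold change was -4.72 ± 0.41 (SE, adjusted p = 5.9e-06 by edgeR with Benjamini-Hochberg adjustment). Col11a1, a type XI chain that joins type II or type V in fibres, was at 51.5, 66.0 and 58.1 TPM in WT and 8.89, 6.68 and 4.58 TPM in Bhlhe41Cre, a difference of -3.16 ± 0.40 (adjusted p = 9.83e-05). Col8a2, whose library values are given above, was lower at -3.01 ± 0.39 (adjusted p = 0.000116), and Col8a1 at -2.0 (adjusted p = 0.00201). Again every Bhlhe41Cre library lay below every WT library for these genes. Col4a3 was at 3.88, 3.93 and 3.26 TPM in WT and 0.62, 0.59 and 0.46 TPM in Bhlhe41Cre, and Col4a4 at 6.19, 5.47 and 5.54 TPM in WT against 1.28, 1.1 and 1.32 TPM in Bhlhe41Cre. These chains of the type IV network of kidney and lung were lower at -2.46 ± 0.30 and -2.09 ± 0.28 (adjusted p = 7.36e-05 and 0.000141). Col4a6 was at 5.81, 5.7 and 5.08 TPM in WT and 2.47, 1.74 and 2.58 TPM in Bhlhe41Cre, lower at -1.14 ± 0.18 (adjusted p = 0.000417). Col4a5 was lower at -1.58 and Col6a5 at -3.24, the latter moving to -3.90 without Bhlhe41Cre CCR2hi replicate 1.

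The abundant chains moved less. Col1a1 was at 5087, 5953 and 6456 TPM in WT CCR2hi and 2494, 1978 and 2235 TPM in Bhlhe41Cre CCR2hi, and was lower at -1.23 ± 0.31 (adjusted p = 0.00864 by edgeR). Col1a2 was lower at -1.09 ± 0.28 (adjusted p = 0.0107). Col3a1 did not pass at -0.60 ± 0.31 (95% interval -1.26 to 0.05, adjusted p = 0.147), although its WT and Bhlhe41Cre libraries did not overlap. Col4a1, Col15a1 and Col5a3 were at -0.29, -0.45 and 0.18, with intervals of -0.84 to 0.25, -1.16 to 0.26 and -0.37 to 0.73. The FACIT genes called were Col9a2 (-1.92), Col22a1 (-1.81), Col12a1 (-1.57), Col16a1 (-1.29) and Col14a1 (-1.20). Col18a1 was the 1 gene higher in Bhlhe41Cre, by 0.66 ± 0.19 (adjusted p = 0.0201), a call lost without WT CCR2hi replicate 1 (0.0607) or Bhlhe41Cre CCR2hi replicate 1 (0.0774) and in limma-trend on TPM. Col5a1, Col6a1 and Col6a2, at -0.80, -0.82 and -0.81, had adjusted p between 0.0418 and 0.0465 and lost the call without any 1 of the 6 CCR2hi libraries, and also without WT CCR2low replicate 2, with library size only and with no filter on low counts. Col5a1 lost it without WT CCR2low replicate 1 as well. Col22a1 lost its call without WT CCR2hi replicate 1 or Bhlhe41Cre CCR2hi replicate 2 or 3 (adjusted p = 0.0533 to 0.067). Col7a1 (-1.92) and Col27a1 (-0.88) kept theirs through every left-out library, but not in limma-trend on log2(TPM + 0.1) (adjusted p = 0.0667 and 0.0977), and that of Col27a1 also not on log2(TPM + 1) without the filter (0.0591).

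**Figure D3:**
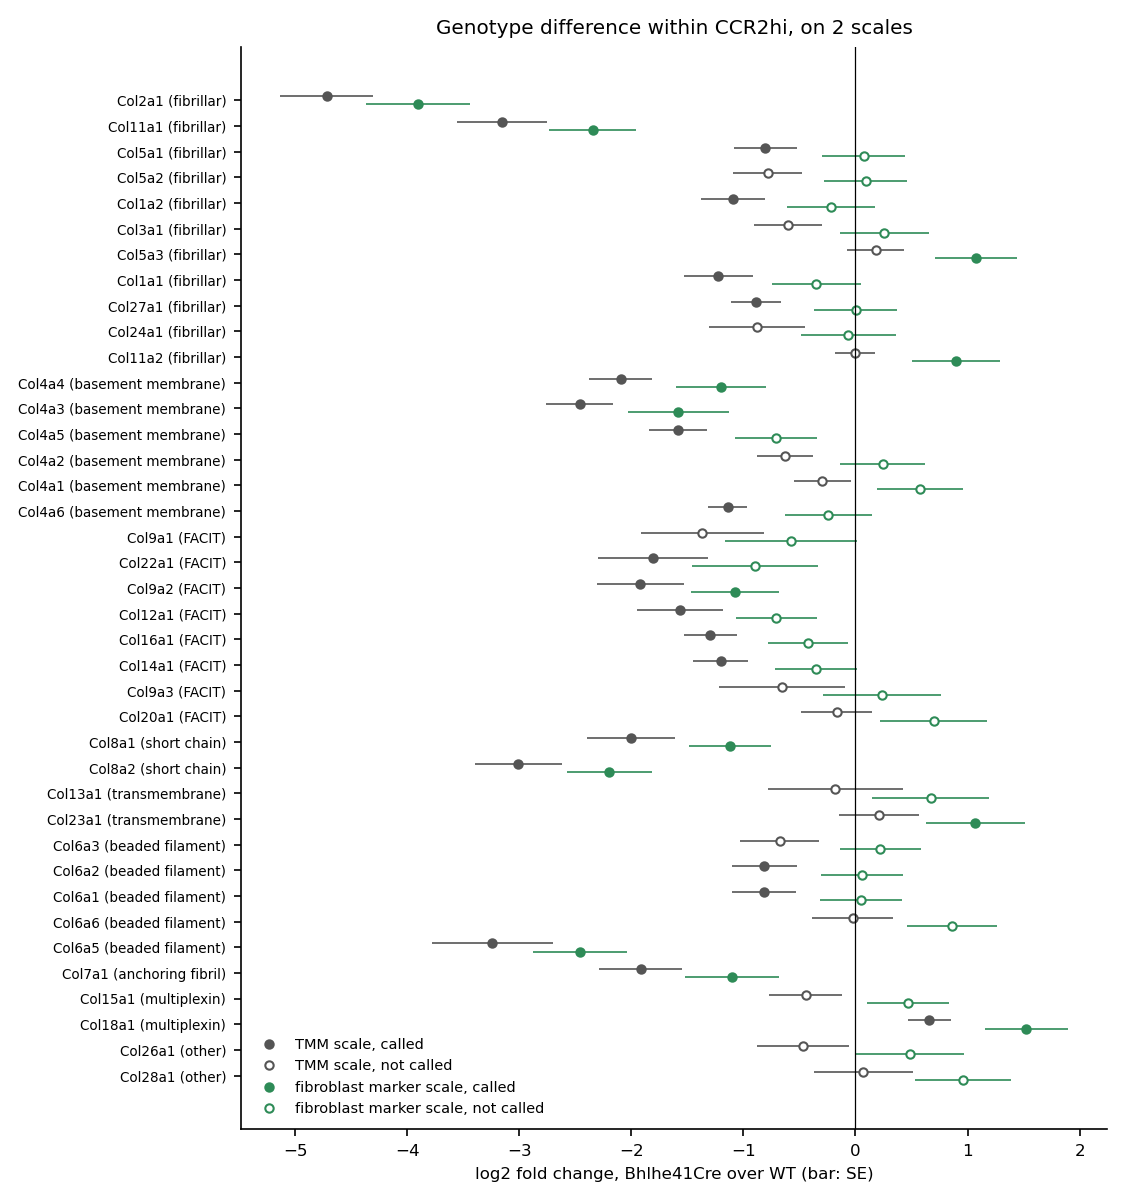
log2 fold change of Bhlhe41Cre over WT within CCR2hi for the 39 tested collagen genes, on the TMM scale (grey) and per unit of fibroblast RNA (green), with bars for the standard error and filled points for called genes. Col2a1, Col11a1, Col6a5, Col8a2, Col4a3 and Col4a4 lie left of 0 on both scales, while Col1a1, Col1a2 and Col3a1 lie near 0 on the fibroblast scale.

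In the same comparison 8 of the 18 fibroblast genes were lower in Bhlhe41Cre CCR2hi, with a list median of -0.77, 9 of 16 macrophage genes were higher (median 1.19), and 3 of 4 tested cartilage genes were lower (median -2.72). Mural cell genes were lower for 3 of 10, endothelial genes higher for 2 of 10, and mesothelial genes higher for 1 and lower for 1 of 7, while no adipocyte, cardiomyocyte or Schwann cell gene was called. Of all genes, 15.9% were lower and 16.2% higher, so the endothelial and mesothelial counts were near the shares of all genes. The cartilage list held 0.115% of these WT counts and 0.0102% of the Bhlhe41Cre ones, and the part of any of these cells in the collagen differences was not tested. Per unit of fibroblast RNA, which shifted all genes by 0.88, 9 collagens were lower (1.16% of all genes) and 4 higher (46.9% of all genes), with a median of 0.00. Col2a1 (-3.90 ± 0.46), Col11a1 (-2.34 ± 0.39), Col6a5 (-2.46 ± 0.42), Col8a2 (-2.19 ± 0.38) and Col4a3 (-1.58 ± 0.45) were lower under all 16 alternatives as well. Col4a4 (-1.20) lost its call without Bhlhe41Cre CCR2hi replicate 2 (adjusted p = 0.0513), and Col8a1 (-1.12) without WT CCR2hi replicate 1 (0.0678). Col9a2 (-1.07) and Col7a1 (-1.10) lost theirs without 3 and 4 of the 6 CCR2hi libraries. These were WT replicates 1 and 2 and Bhlhe41Cre replicate 3 for Col9a2 (adjusted p = 0.0758 to 0.131), and replicates 2 and 3 of both genotypes for Col7a1 (0.0656 to 0.114). Col1a1, Col1a2 and Col3a1 were at -0.35 ± 0.39, -0.22 ± 0.39 and 0.26 ± 0.40, with intervals of -1.12 to 0.42, -0.99 to 0.55 and -0.52 to 1.04. Col18a1 (1.52) and Col5a3 (1.08) were higher under all 16 alternatives, and the other 2 higher calls, Col23a1 and Col11a2, were lost in 6 and 10 of them.

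In CCR2low, 17 of the 39 genes were lower in Bhlhe41Cre, against 26.7% of all genes, and 1 was higher, against 16.4%. The collagen median was -0.95, beside -0.18 over all genes. Of the classes, 7 of 11 fibrillar, 2 of 6 type IV, 4 of 8 FACIT, 1 of 2 short chain and 3 of 5 type VI genes were lower. Bhlhe41Cre CCR2low replicate 2 carried more collagen RNA than the other libraries of its group and also more fibroblast RNA, at 0.123% of counts against 0.0423% in the lowest. Without it 23 genes were lower, while 9 were lower without replicate 3 of that group and 9 with no filter on low counts. For 6 of the 17 (Col3a1, Col5a1, Col5a2, Col6a1, Col6a2 and Col14a1) the groups overlapped in CPM, in each case through replicate 2.

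Col8a2 had the smallest p, with a log2 fold change of -2.82 ± 0.43 (SE, adjusted p = 0.000285 by edgeR), and all its Bhlhe41Cre libraries, at 0.57 to 1.98 TPM, lay below the lowest WT library. Col16a1 was lower at -1.55 ± 0.24 (adjusted p = 0.000335), also with no overlap. Col2a1 was at 1.31, 0.51 and 0.31 TPM in WT and 0, 0.06 and 0.03 TPM in Bhlhe41Cre, the latter from 0, 4 and 2 counts, and its -4.06 ± 0.70 moved to -4.97 without Bhlhe41Cre CCR2low replicate 2. Col1a1 was at 581, 570.0 and 329 TPM in WT and 109, 261 and 118 TPM in Bhlhe41Cre, lower at -1.61 ± 0.31 (adjusted p = 0.00134). Col11a1 was at 2.69, 2.88 and 2.47 TPM in WT and 0.42, 1.09 and 0.17 TPM in Bhlhe41Cre. Its difference of -2.23 ± 0.45 became -2.93 without Bhlhe41Cre CCR2low replicate 2 and -1.63 without replicate 3, and that of Col8a2 became -3.53 without replicate 2. Col4a5 was at 5.59, 6.08 and 4.59 TPM in WT and 2.03, 3.48 and 1.38 TPM in Bhlhe41Cre, lower at -1.30 ± 0.27 (adjusted p = 0.00202). Together with Col1a2 (-1.37), these 6 genes were the ones called under every alternative. Col4a1, Col4a2, Col15a1 and Col18a1, at 0.10, -0.17, -0.13 and 0.07, were not called, and Col5a3 was at 0.06 (95% interval -0.51 to 0.62).

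The other calls in CCR2low rested on single libraries more often. Col3a1 (-0.94), Col5a2 (-1.05), Col6a1 (-0.95) and Col6a2 (-0.96) each lost the call without WT CCR2low replicate 1 or 2 or Bhlhe41Cre CCR2low replicate 1 or 3, with adjusted p of 0.0521 to 0.164. They also lost it without some CCR2hi libraries, which enter through the shared spread and scaling, at adjusted p of 0.0504 to 0.084. Col5a1 (-1.12) and Col14a1 (-0.96) lost it without Bhlhe41Cre CCR2low replicate 3 (0.0585 and 0.0643). Col9a2 (-1.93) lost it without WT CCR2low replicate 1 or Bhlhe41Cre CCR2low replicate 1 or 3 and was -3.09 without replicate 2. Col20a1 (-1.10) lost it without WT CCR2low replicate 2, any Bhlhe41Cre CCR2low library or any Bhlhe41Cre CCR2hi library. Col6a5 (-2.17) was -3.21 without Bhlhe41Cre CCR2low replicate 2, and Col4a6 (-0.91) kept its call through every left-out library. Col11a2, the 1 gene higher (0.59 ± 0.17, adjusted p = 0.015), lost its call without WT CCR2low replicate 2 (0.0516) or Bhlhe41Cre CCR2low replicate 1 (0.0611).

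Of the fibroblast genes, 11 of 18 were lower in Bhlhe41Cre CCR2low (median -1.19), as were all 10 mural, all 8 cardiomyocyte and 3 of 4 tested cartilage genes, while no macrophage gene of 16 was called. Adipocyte genes were lower for 4 of 4 tested (median -6.93), with a share of counts that ran from 0.00218% to 0.0789% between the WT CCR2low libraries. Mesothelial genes were lower for 6 of 7, Schwann cell genes for 4 of 8 and endothelial genes for 2 of 10. Of all genes, 26.7% were lower and 16.4% higher in this comparison, so the endothelial count was near the share of all genes. The part of any of these cells in the collagen differences was not tested. Per unit of fibroblast RNA, where all genes shifted by 1.17 and 12 of the 16 macrophage genes were higher, the collagen median was 0.10, with 4 genes lower (2.18% of all genes) and 7 higher (56.6%). The 4 lower were Col2a1 (-3.07), Col8a2 (-1.82), Col6a5 (-1.38) and Col11a1 (-1.26), all of which were also lower on this scale in CCR2hi. Col6a5 lost the call without WT CCR2low replicate 3 (adjusted p = 0.122), where it was -0.79, and Col11a1 without Bhlhe41Cre CCR2low replicate 3 (0.0736). Among the 7 higher, Col11a2 (1.79), Col18a1 (1.21) and Col5a3 (1.10) held in all 16 alternatives. Col4a1 (1.14) lost its call without Bhlhe41Cre CCR2low replicate 1 (0.0545). Col4a2 (0.89) and Col15a1 (0.92) lost theirs without that library (0.15 and 0.0764) or any WT CCR2low library (0.0529 to 0.107), and when the summed counts of the fibroblast list set the scale (0.132 and 0.106). Col9a1 (2.99) rested on 7 against 2 counts. At the library sizes of the TMM scale its ratio of WT to Bhlhe41Cre counts was 0.265, with a 95% counting interval of 0.0268 to 1.39. That interval includes equal levels on the TMM scale, and none was computed on the fibroblast scale. Col9a1 passed the filter only through CCR2hi. Its call was lost without WT CCR2low replicate 2 or 3 or Bhlhe41Cre CCR2low replicate 1 or 3 (0.0687 to 0.114). Its value was 7.73 without WT CCR2low replicate 1.

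The interaction asks whether the gate difference itself differed between the genotypes, as CCR2low minus CCR2hi in Bhlhe41Cre minus the same in WT, and it uses the libraries of all the comparisons above. On the TMM scale 1 collagen was called higher, against 4.74% of all genes, and none lower, against 7.85%. No collagen was lower at an unadjusted p under 0.05 either, nor by DESeq2, and 4 were higher at that unadjusted level. The called gene was Col4a4, which was at 0.31, 0.13 and 0.3 TPM in WT CCR2low and 6.19, 5.47 and 5.54 TPM in WT CCR2hi. In Bhlhe41Cre it was at 0.14, 0.26 and 0.15 TPM in CCR2low and 1.28, 1.1 and 1.32 TPM in CCR2hi, so the genotypes overlapped in CCR2low and were far apart in CCR2hi. Its gate difference of -4.22 in WT and -2.63 in Bhlhe41Cre gave an interaction of 1.58 ± 0.46 (adjusted p = 0.0403 by edgeR). With the replicate number as a block it was 1.57 (adjusted p = 0.0511), and with library size only 1.48 (adjusted p = 0.0506). The call was also lost without WT CCR2low replicate 2 (0.0899), WT CCR2hi replicate 2 (0.0579) or 3 (0.0649), Bhlhe41Cre CCR2low replicate 2 (0.142), and Bhlhe41Cre CCR2hi replicate 2 (0.0541) or 3 (0.0581). Its neighbour Col4a3 was at 1.49 ± 0.55 (adjusted p = 0.0943) and was called by DESeq2 (1.57, adjusted p = 0.0226). Without Bhlhe41Cre CCR2low replicate 3, 6 collagens were called. Per unit of fibroblast RNA no collagen was called in either direction, against 1.92% of all genes higher and 1.71% lower, while 6 were higher and 1 lower at an unadjusted p under 0.05, and the replicate block called 1, Col4a4.

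Ratios between chains of the same library do not depend on library scaling, and for some of them the genotypes did not overlap. The TPM ratio of Col1a1 to Col3a1 was 0.554, 0.529 and 0.498 (CCR2low) against 0.422, 0.506 and 0.495 (CCR2hi) in WT. In Bhlhe41Cre it was 0.289, 0.335 and 0.397 in CCR2low and 0.294, 0.309 and 0.382 in CCR2hi, so every Bhlhe41Cre library lay below every WT library. The ratio of Col4a1 to Col4a2 was 1.52, 1.59 and 1.63 (CCR2low) against 1.47, 1.33 and 1.48 (CCR2hi) in WT. In Bhlhe41Cre it was 1.83, 2.05 and 1.84 (CCR2low) against 1.94, 1.88 and 1.70 (CCR2hi), and all 6 of these were above all WT values. Both orders were the same for ratios of counts. Reads in the short stretch where Col4a1 and Col4a2 overlap at their starts may be split between them, since no strand protocol is stated.

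In the other ratios the genotypes overlapped in 1 or both gates. Col1a1 to Col1a2 averaged 1.10 ± 0.0358 (SD, n = 3) in CCR2low and 1.01 ± 0.0600 in CCR2hi libraries of WT, and 0.938 ± 0.0652 and 0.934 ± 0.0537 in those of Bhlhe41Cre. In CCR2low the WT libraries (1.06 to 1.13) were all above the Bhlhe41Cre ones (0.868 to 0.997), and in CCR2hi the genotypes overlapped. The type I trimer has 2 chains from Col1a1 to 1 from Col1a2, and these RNA ratios lay between 0.868 and 1.13 in all 12 libraries. Col6a1 to Col6a2 averaged 1.01, 0.958, 1.01 and 0.948 in the same order of groups, and Col5a1 to Col5a2 0.794, 0.803, 0.760 and 0.806. Col6a1 to Col6a3 varied more between libraries, from 2.47 to 4.31, with means of 3.64, 3.83, 3.07 and 3.20. No test was made of the ratios.

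**Figure D4:**
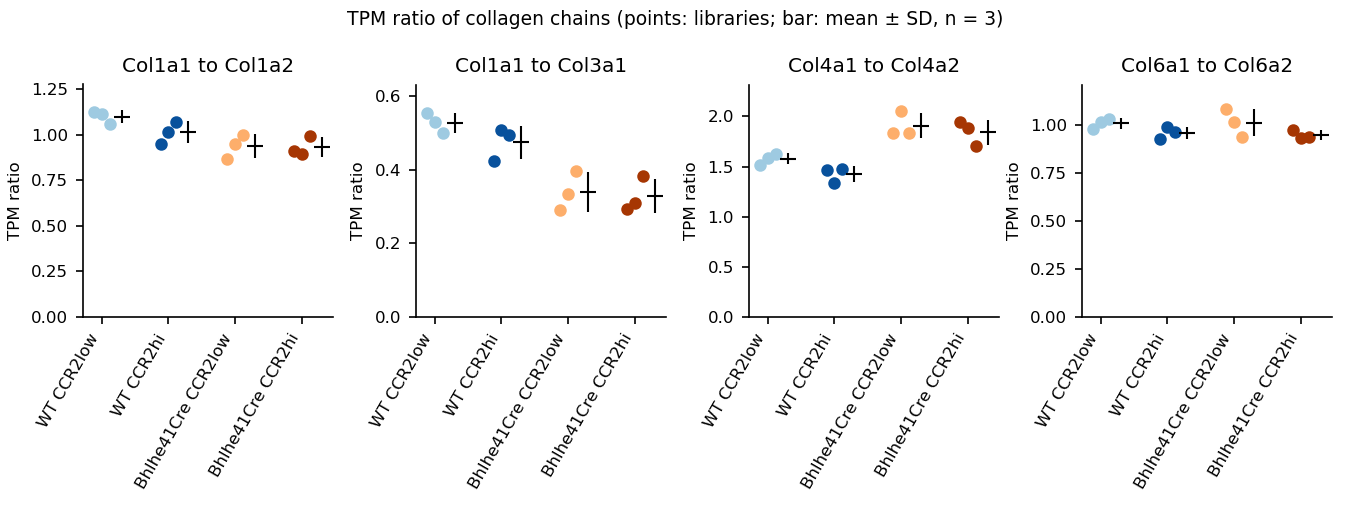
TPM ratios of 4 pairs of collagen chains in each library (points), with the mean and SD of 3 libraries per group (black). Bhlhe41Cre points lie below WT points for Col1a1 to Col3a1 and above them for Col4a1 to Col4a2, and the groups overlap for Col6a1 to Col6a2.

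The make-up of the collagen RNA by class was also not the same in every group. Fibrillar genes held 78.6, 78.8 and 74.7% of collagen TPM in the CCR2low libraries of WT and 77.8, 81.7 and 83.9% in its CCR2hi libraries. In Bhlhe41Cre they held 62.7, 67.3 and 69.6% in CCR2low and 80.1, 78.1 and 80.6% in CCR2hi, so Bhlhe41Cre CCR2low lay below the other 3 groups. Type IV genes held 22.2, 18.5 and 15.9% in Bhlhe41Cre CCR2low, above every other library, and averaged 10.1 ± 1.63% in WT CCR2low, 6.23 ± 0.903% in WT CCR2hi and 8.51 ± 0.225% in Bhlhe41Cre CCR2hi (SD, n = 3). The multiplexins followed the same order, with 5.07 ± 0.691% in Bhlhe41Cre CCR2low and between 1.72% and 2.71% on average elsewhere. Short chain genes held 2.29 ± 0.717% in WT CCR2hi, where all 3 libraries were above every other library, and 0.923 ± 0.178% in Bhlhe41Cre CCR2hi. Endothelial cells are a known source of type IV collagen and Col18a1, and the 10 endothelial genes made up 0.0754% (CCR2low) and 0.246% (CCR2hi) of WT counts and 0.0576% and 0.292% of Bhlhe41Cre counts. Their part in these shares was not tested. As with the ratios, these shares were not tested, and because they sum to a whole a higher share of 1 class lowers the others.

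**Figure D5:**
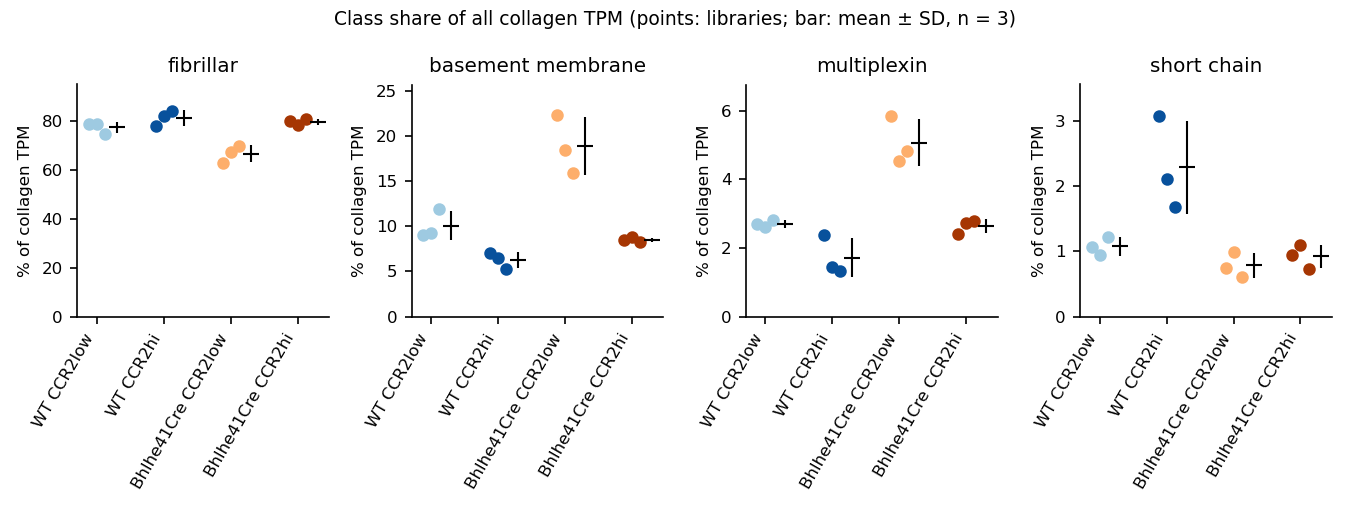
Share of each library's collagen TPM held by 4 classes, with points for libraries and black marks for the mean and SD of 3. Bhlhe41Cre CCR2low stands apart, with fibrillar genes at 62.7% to 69.6% and type IV genes at 15.9% to 22.2%.

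Some pairs of neighbouring collagen genes gave similar values and others did not. On GRCm38 in GENCODE release 21, Col4a4 (chr1:82448423-82586849, minus strand) and Col4a3 (chr1:82586921-82722059, plus strand) start 72 bases apart in opposite directions, and the Col4a4 window printed above contains the start of Col4a3. Col4a6 (chrX:141165403-141474076) and Col4a5 (chrX:141475385-141689234) start 1309 bases apart in the same head-to-head layout. In CCR2hi the genotype difference was -2.46 and -2.09 for Col4a3 and Col4a4, -1.58 and -1.14 for Col4a5 and Col4a6, and -0.29 and -0.63 for Col4a1 and Col4a2. Between the WT gates Col4a3 and Col4a4 were at -4.19 and -4.22, whereas Col4a6 (-2.14) lay nearer to Col4a1 (-2.56) and Col4a2 (-2.68) than to its neighbour Col4a5 (-3.05). In the genotype comparison in CCR2hi, Col3a1 and Col5a2, whose ends face each other 24615 bases apart, were at -0.60 and -0.78. Col6a5 and Col6a6, which lie 27918 bases apart in the same direction, were at -3.24 and -0.02 there. No test was made of likeness between neighbours. In the annotation 17 of the 43 genes overlap a gene on the other strand, as Col18a1 does with Slc19a1, and reads of such neighbours could enter their counts.

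The 4 untested genes were scarce. Col6a4 had 11, 0 and 2 counts in the CCR2low and 10, 2 and 8 in the CCR2hi libraries of WT, and 0, 0 and 1 (CCR2low) against 14, 5 and 4 (CCR2hi) in Bhlhe41Cre. Col10a1, the chain of growth plate cartilage, had 4, 0 and 0 (CCR2low) against 8, 3 and 1 (CCR2hi) in WT and 0, 2 and 1 against 3, 2 and 1 in Bhlhe41Cre. Col17a1 and Col25a1, both transmembrane, had at most 11 and 5 counts in any library. The ratio of Col6a4 in Bhlhe41Cre CCR2hi to Bhlhe41Cre CCR2low, from 23 and 1 counts, was 20.3 (95% counting interval 3.30 to 836). These numbers are too low to rank the groups, and such intervals cover counting error only.

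Genes that make and process collagen mostly went the way of the chains between gates. Of 30 biosynthesis genes, 26 were lower in CCR2low in WT and 27 in Bhlhe41Cre, against 30.04% and 29.1% of all genes. None was higher, against 29.8% and 24.9%, and the medians were -2.60 and -2.95. Per unit of fibroblast RNA the medians became 0.81 and 0.66, and 15 and 14 were higher and none lower. That was a smaller share than among all genes, of which 92.3% and 90.04% were higher, with medians of 3.43 and 3.71. On the TMM scale P3h3, a prolyl 3-hydroxylase, was at -2.54 and -2.72, Adamts14, which trims procollagen ends, at -2.57 and -3.30, and Loxl1, a crosslinking oxidase, at -3.28 and -3.83. Plod1, a lysyl hydroxylase, was not called in either genotype (-0.01 and -0.11). Between genotypes 17 of the 30 were lower in Bhlhe41Cre CCR2low and 10 in Bhlhe41Cre CCR2hi, against 26.7% and 15.9% of all genes. None was higher, against 16.4% and 16.2%, and the medians were -0.69 and -0.31. Per unit of fibroblast RNA the medians were 0.36 and 0.57, and 5 and 4 were higher and none lower. A larger share of all genes, 56.6% and 46.9%, was higher on that scale, with medians of 1.00 and 0.86. P3h3 (-1.08 and -0.89), Loxl1 (-1.70 and -1.15) and Adamts2 (-1.54 and -1.17) were among the genes lower on the TMM scale in both gates. Mia3, which helps load procollagen for export, was the 1 gene of the list called in the interaction (0.84, adjusted p = 0.0118 by edgeR). Of all genes, 4.74% were called higher and 7.85% lower in the interaction.

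Fibril-associated proteins, a list of 10 of which Dcn, Lum and Postn are also fibroblast markers here, were lower in CCR2low for all 10 in both genotypes on the TMM scale. Of all genes, 30.04% were lower in WT and 29.1% in Bhlhe41Cre. On the fibroblast scale 1 was higher and 1 lower in WT, and 2 were higher and none lower in Bhlhe41Cre, with medians of 0.08 and 0.27. There 92.3% of all genes were higher and 0.227% lower in WT, and 90.04% and 0.0334% in Bhlhe41Cre. On the TMM scale Aebp1, a collagen-binding protein, was at -2.67 and -3.19, and Lum at -4.06 and -3.83. Between genotypes 6 were lower in Bhlhe41Cre CCR2low and 8 in Bhlhe41Cre CCR2hi, against 26.7% and 15.9% of all genes. Per unit of fibroblast RNA 0 and 2 were lower, against 2.18% and 1.16%, and 1 and 0 higher, against 56.6% and 46.9%. The genes lower on the TMM scale were led by Aebp1 (-1.76) and by Fmod (-2.98), the small proteoglycan fibromodulin. Fn1, fibronectin, was the 1 gene of this list called in the interaction, at 0.94 (adjusted p = 0.0295 by edgeR). On the TMM scale 4.74% of all genes were called higher in the interaction and 7.85% lower.

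Genes for collagen receptors, uptake and cleavage, of which Ddr2 is also a fibroblast marker here, split in direction between gates on the TMM scale. There, of 18 tested, 11 were lower and 5 higher in CCR2low in WT, and 9 lower and 5 higher in Bhlhe41Cre. Of all genes, 30.04% were lower and 29.8% higher in WT, and 29.1% and 24.9% in Bhlhe41Cre. Per unit of fibroblast RNA 12 of the 18 were higher in WT and 14 in Bhlhe41Cre, and none was lower, with medians of 2.23 and 2.79. Most genes of any kind were higher on that scale, 92.3% in WT and 90.04% in Bhlhe41Cre, with larger medians of 3.43 and 3.71. The collagen-binding integrin Itga11 (-3.61), the receptor Ddr2 (-3.60) and the protease Mmp2 (-3.41) were lower in WT CCR2low on the TMM scale. The mannose receptor Mrc1, which takes up collagen fragments, was higher in CCR2low by 2.81 in WT and 2.89 in Bhlhe41Cre, and the inhibitory collagen receptor Lair1 by 3.19 and 2.09. Between genotypes in CCR2hi 6 were lower, among them Itga11 (-1.90) and Mmp2 (-1.98), and 6 higher, among them the collagenases Mmp8 (3.93) and Mmp13 (1.20). Of all genes, 15.9% were lower and 16.2% higher in that comparison. In CCR2low 4 were lower, against 26.7% of all genes, and 3 higher, against 16.4%, shares close to those of all genes, with Mmp13 at 2.17 and Itga11 at -2.17. On the fibroblast scale 8 were higher and 2 lower in CCR2hi, and 12 and 2 in CCR2low. Of all genes, 46.9% were higher and 1.16% lower in CCR2hi, and 56.6% and 2.18% in CCR2low. The higher calls were thus about as frequent as among all genes. The interaction on the TMM scale called 4 of the list, all lower, led by Mmp8 (-2.25, adjusted p = 0.00467 by edgeR). It called 7.85% of all genes lower and 4.74% higher.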

How the data were processed

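Per the submitters' processing notes, the tools were CASAVA 1.8, STAR 2.4.0j and RSEM on mm10; the RSEM version and the annotation were not given in the sources used. The authors deposited expected counts per gene, all whole numbers (0 non-whole values), and TPM. Bhlhe41Cre columns are named KD there and were matched by gate and number (0 columns unmatched); their label fields are shifted, so titles gave the group.

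Counts were fitted with edgeR 4.0.16 in R 4.3.3 (TMM, filterByExpr, robust glmQLFit with 1 mean per group over all 12 libraries, glmQLFTest). Benjamini-Hochberg adjustment covered all 14964 genes that passed, and an adjusted p under 0.05 was a call, with no fold minimum. A second fit scaled each library by its fibroblast RNA. Alternatives used DESeq2 1.42.0, limma 3.58.1 on log2 of the deposited TPM, other scalings and filters, a replicate block and each library left out. The fit was tested on simulated data. Whether equal replicate numbers mark related libraries was checked through the correlation of their deviations from the group means. Between gates r was 0.23, 0.12 and 0.40 in Bhlhe41Cre, and -0.06, 0.03 and -0.05 in WT. Bhlhe41Cre CCR2low number 2 correlated best with CCR2hi number 1. The Y-linked sums given above were lowest in number 3 of both Bhlhe41Cre gates, at 105 (CCR2low) and 182 (CCR2hi) counts. The labels do not state whether these libraries share animals. The main fits on both scales used no pairs. Only the replicate block alternative did, and it used the numbers in both genotypes.

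Library values are given for the 2 most abundant genes of each class, up to 6 genes per genotype or interaction comparison by smallest p, and genes called against the main direction in a gate. Up to 4 genes of each other list were taken by p; Plod1, Ddr2, Mmp13 and other genes outside this rule were chosen after their values were seen. The collagen genes and all lists were chosen with earlier results of these data known.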

Additional observations from a re-analysis of the deposited data

Results flagged for a closer look

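The interaction of gate and genotype was called for Col4a4, and the call did not hold under several alternatives. CCR2low minus CCR2hi in Bhlhe41Cre minus the same in WT was 1.58 on the log2 TMM scale (adjusted p = 0.0403 by edgeR), because Col4a4 was lower in Bhlhe41Cre than in WT by -2.09 in CCR2hi and by -0.51, which was not called, in CCR2low. Col4a4 was the 1 collagen of 39 tested with such a call. The adjusted p was 0.0511 with the replicate block, 0.0506 with library size only, 0.0541 to 0.142 without any 1 of 6 libraries, and 0.0958 per unit of fibroblast RNA. Single outlying libraries in groups of 3 were not flagged here. The effect of leaving each library out in turn is given with the results.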

How the results depend on the processing

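Every count below is of the 39 tested collagen genes, and no collagen call changed direction under the alternatives run within 1 scale. Between the TMM and the fibroblast scale, 8 genes in the WT gates and 13 in the Bhlhe41Cre gates were called lower on the first and higher on the second. On the TMM scale, genes lower in Bhlhe41Cre CCR2low fell from 17 to 9 with no filter on low counts. With limma-trend on log2(TPM + 1), log2(TPM + 0.1) or log2(TPM + 1) without the filter, the 1 higher gene of the Bhlhe41Cre gates, of genotype in CCR2low and of genotype in CCR2hi became 0 each time. For the interaction the 1 higher gene became 2 with DESeq2, no filter, a mean of at least 1 CPM or log2(TPM + 0.1), 5 with log2(TPM + 1), 4 with log2(TPM + 1) and no filter, and 0 with library size only. Pairing libraries by a replicate block gave 0 for that interaction and 1 in place of 0 on the fibroblast scale, and moved no other count of calls by over 1.5 times. On the fibroblast scale, lower genes in the WT gates went from 5 to 0 with summed counts and to 11 without matrix genes in the list, and in the Bhlhe41Cre gates from 0 to 2 without matrix genes. Higher genes between genotypes in CCR2hi went from 4 to 2 without matrix genes or the filter, and in the interaction from 0 to 2 without matrix genes. The summed collagen level of the WT gates was -3.21 (log2) with CPM in place of TPM. With each library left out in turn, TMM counts lower and higher ranged 33 to 36 and 0 to 0 (WT gates), 36 to 38 and 1 to 1 (Bhlhe41Cre gates), 9 to 23 and 0 to 1 (genotype, CCR2low), 17 to 25 and 0 to 1 (genotype, CCR2hi), and 0 to 0 and 0 to 6 (interaction). On the fibroblast scale they ranged 2 to 8 and 9 to 13, 0 to 2 and 11 to 16, 3 to 5 and 3 to 8, 7 to 11 and 2 to 7, and 0 to 0 and 0 to 1 in the same order. The causes of these changes were not tested. Few counts limit Col9a1, Col22a1, Col26a1 and Col2a1, with 7, 7, 9 and 6 in Bhlhe41Cre CCR2low, and the 4 untested genes.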
